A study of Mus musculus with 20 samples.

Results

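The comparison set lungs of mice that breathed cigarette smoke while drinking losartan (CS_Los) against lungs of untreated mice in room air (RA). It used the 6 arrays of batch 1 that carry those labels, 3 for each group, out of 20 arrays in all. Arrays whose titles place them in batch 2 were kept apart. All animals were male AKR/J mice, an inbred strain, 6 to 8 weeks old when the exposure began. The CS_Los mice were exposed to smoke of 2R4F reference cigarettes for 2 hours a day on 5 days a week, at a mean carbon monoxide level of 350 ppm, and drank losartan at 0.6 g per L. The length of the exposure is given as 6 to 7 weeks in the treatment protocol and as 2 months in the design. The RA mice breathed filtered air and received no drug. Batch 1 also holds 3 arrays of smoke without the drug (CS) and 3 arrays of room air with losartan at the same concentration (RA_Los). Batch 2 holds 4 RA and 4 CS arrays and no losartan group. Each array measured RNA of whole lung, so that fewer cells of a type and less RNA per cell cannot be told apart. The labels number the arrays but do not state that each came from a separate animal, and p-values then measure only the spread between these arrays, which may be technical.

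Cigarette smoke is known to draw neutrophils and macrophages into the lung, where their proteases can break down elastic fibres. It also switches on genes of the aryl hydrocarbon receptor and of NRF2, the sensors of polycyclic hydrocarbons and of oxidative stress. Angiotensin II acts through its type 1 receptor to constrict vessels and to raise TGF-beta signalling, and losartan blocks that receptor. The comparison asks which differences of smoke type remain when the drug is given.

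Values below are log2 intensities after background correction and quantile normalisation, and a difference of 1 on that scale is a factor of 2. Errors are standard errors of the limma fit unless an SD is named, and n is 3 arrays a group. Arrays are listed in the order of their numbers, and CS_Los arrays 1 to 3 are named by that order. Where values are set "against" each other without a group name, the RA arrays come first and the CS_Los arrays second. Of 25697 probes, 17012 were detected on at least 3 arrays, which gave 12719 features with 1 probe a gene. The median raw signal of the batch 1 arrays ranged from 57.2 to 72.3, and 13946 to 15155 probes were detected on each. Markers of lung were high on all 6 arrays. Sftpc, the surfactant protein of alveolar type II cells, lay between 14.37 and 14.70, and Scgb1a1, the club cell secretoglobin, between 14.98 and 15.09.

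The 3 CS_Los arrays did not look alike, and this touches every result that follows. A smoke score was formed for each array as the mean of the 308 features higher in smoke in batch 2 minus the mean of the 393 that were lower there. Batch 2 shares no array with batch 1. Relative to the RA mean, the CS_Los arrays scored 1.33, -0.184 and 0.566, while the RA arrays scored -0.0717, 0.0553 and 0.0164. CS_Los array 1 thus scored as high as the smoke arrays without the drug, which stood at 0.728, 1.27 and 1.17. CS_Los array 2 scored below all 3 RA arrays. The RA_Los arrays, which had no smoke, scored -0.0584, 0.557 and 0.677, so that RA_Los arrays 2 and 3 scored about as high as CS_Los array 3. The SD over the CS_Los arrays was 0.756, against 0.0650 over the RA arrays. Over all features the median within-group SD was 0.259 in CS_Los and 0.166 in RA. Over the smoke features it was 0.458 in CS_Los and 0.178 in RA.

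**Figure D1:**
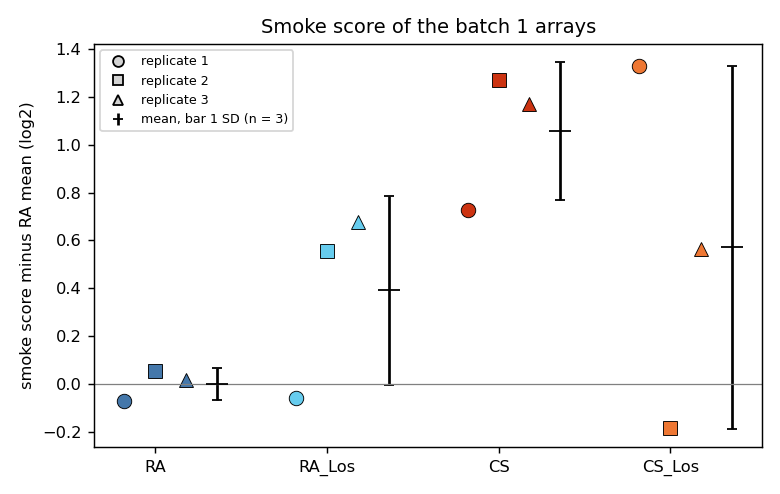
Smoke score of each batch 1 array minus the mean of the RA arrays, on the log2 scale, by group, with symbols for replicates 1 to 3 and the group mean with 1 SD beside them. The CS_Los arrays span -0.184 to 1.33, from below the RA arrays to above the highest CS array.

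Across all features, limma called 1 of 12719 features at a Benjamini-Hochberg adjusted p under 0.05 between CS_Los and RA, or 0.00786%. A further view of the same fit, at an unadjusted p under 0.05, held 829 features. The called gene was Reg3b, a secreted antimicrobial lectin of epithelia, and it was lower with smoke and losartan. Its RA arrays read 6.61, 5.89 and 6.12. Its CS_Los arrays read 4.31, 4.34 and 4.25. The groups were far apart, and Reg3b was detected on 3 of 3 RA arrays and on 0 of 3 CS_Los arrays. With values not well above background set at the lowest detected signal of their array, it was at least 2.35-fold lower. The fitted difference was -1.91 ± 0.200 with a limma adjusted p of 0.00402.

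Reg3b was low in every other group of batch 1, with or without smoke, and did not separate smoke from air in batch 2. Beside its value in CS_Los, the RA_Los arrays read 4.96, 4.31 and 4.51 and the batch 1 CS arrays read 4.55, 4.41 and 4.53, all below the RA arrays they share. In batch 2 the gene was detected on 0 of 4 RA and on 0 of 4 CS arrays, and its difference there was 0.01 (limma adjusted p = 0.974). The 3 RA arrays of batch 1 were thus the ones that stood apart. Reg3b was detected on them and on no other array, so it met the detection filter only through the group where it was high. With no detection filter its limma adjusted p was 0.0239. With the 75th percentile centring the adjusted p was 0.0818, with the log2 values deposited for the series 0.158, with only the 6 arrays in the fit 0.0759, and with all 20 arrays and a batch term 0.0505.

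Between CS_Los and CS, limma called 0 of 12719 features (0.00%). At an unadjusted p under 0.05 there were 756, and the smallest adjusted p was 0.556. In the same fit, CS against RA of batch 1 also gave 1 call, Reg3b, while the 8 arrays of batch 2 gave 701 (5.51%), 308 higher (2.42%) and 393 lower (3.09%) in smoke. Those 701 are called smoke features here.

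Of the 701 smoke features, 598 (85.3%) had the same sign in CS_Los minus RA as in batch 2, and 0 passed the test. Without CS_Los array 1 the share was 58.6%, and without CS_Los array 2 it was 92.3%. Single arrays shared the sign on 94.3%, 34.8% and 70.9% of the features in CS_Los and on 42.5%, 73.2% and 81.9% in RA_Los, which shares the RA arrays and had no smoke. The shares of the 2 groups overlapped. Taken in the direction of smoke, their median difference was 0.23 in CS_Los, against 0.55 in batch 2 and 0.44 in the CS arrays of batch 1, which share the RA arrays. The median over all 12719 features was -0.01. The same sign was found for 348 of the 393 features lower in smoke (88.6%) and for 250 of the 308 higher in smoke (81.2%), a difference that was not tested. The size in batch 2 mattered to the count. The share was 81.6% for the 397 features that smoke moved by under 1.5-fold in batch 2, 87.7% for the 235 between 1.5- and 2-fold and 98.6% for the 69 over 2-fold. The 1 exception among the 69 was probe 6940753, which the annotation used here does not name.

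A stricter reading asks on how many features all 3 CS_Los arrays lay beyond all 3 RA arrays. Over all features 11.1% did so in either direction, 4.83% above and 6.31% below. Among the smoke features, 37 of the 308 higher ones (12%) lay above and 35 of the 393 lower ones (8.91%) lay below. For the 69 features over 2-fold the counts were 16 of 27 higher and 6 of 42 lower. Most of the features that smoke lowered strongly in batch 2 thus overlapped with room air in CS_Los, and most that it raised strongly lay above. The split between the directions was not tested.

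Array by array the picture was uneven. CS_Los array 1 reached at least 50% of the batch 2 change on 584 of the 701 smoke features (83.3%), CS_Los array 2 on 67 (9.56%) and CS_Los array 3 on 314 (44.8%). The CS arrays of batch 1 reached it on 53.1%, 84.7% and 83.0%, and the RA_Los arrays on 11%, 44.2% and 49.2%. The largest class held 295 features that reached it on CS_Los array 1 alone, and the next held 233 that reached it on arrays 1 and 3. Only 37 features did so on all 3 CS_Los arrays, and 68 on none.

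**Figure D2:**
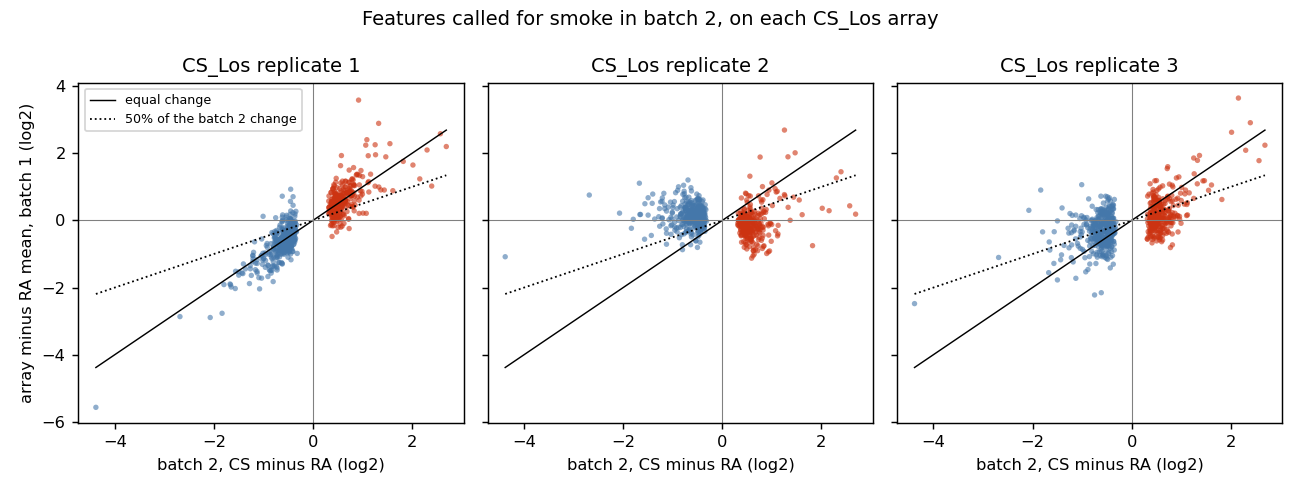
Change of the 701 smoke features in batch 2 (x axis, CS minus RA, log2) against their deviation from the RA mean on CS_Los arrays 1, 2 and 3 (y axis, log2), red for features higher and blue for features lower in smoke in batch 2. The solid line marks equal change and the dotted line 50% of it, which 584, 67 and 314 features reached in the 3 panels.

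Among the 69 features over 2-fold, the 9 that reached the 50% mark on all 3 CS_Los arrays were all higher in smoke. They were Cd177, Cxcl5, Retnlg, Lcn2, S100a9, Pglyrp1, Chil1, Mmp9 and the unnamed probe 5860154. Most of these are known from neutrophils. Cd177 is a surface protein of neutrophils, Lcn2 and Pglyrp1 are stored in their granules, S100a9 is a major calcium-binding protein of their cytosol, and Mmp9 is the gelatinase they release. Cxcl5 is an epithelial chemokine that attracts them. Chil1 is a chitinase-like protein made by macrophages and epithelium. Chil1 and Pglyrp1 also reached the mark on all 3 RA_Los arrays, without smoke, and the others of the 9 did not. Deviations there from the RA mean were 0.63, 0.584 and 0.944 for Chil1 and 0.689, 1.44 and 0.693 for Pglyrp1. A further 28 features reached the mark on CS_Los array 1 alone, and 24 of them were lower in smoke. They include Hsph1, Stip1 and Fkbp4, which work with heat shock proteins, the clock genes Per1, Per2 and Ciart, and Tsc22d3, Pdk4 and Angptl4, known targets of glucocorticoids or of fasting. The 25 that reached it on arrays 1 and 3 include Retnla, Saa3, Dbp, Nr1d1, Hspa1a, Hspb1, Dnajb1 and Cdkn1a.

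**Figure D3:**
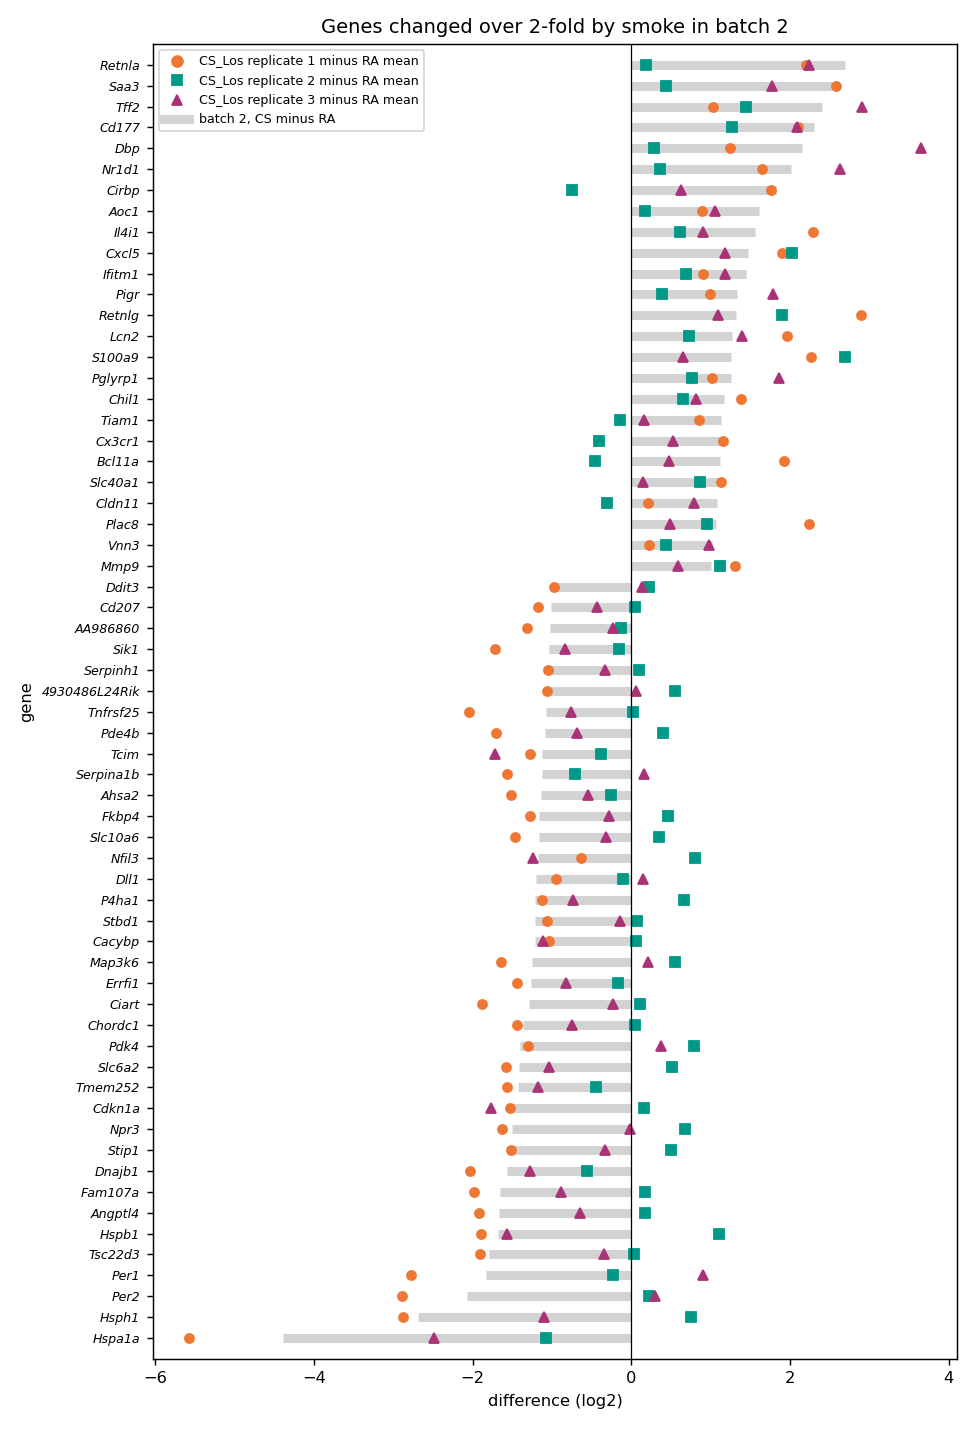
The 62 named genes that smoke moved over 2-fold in batch 2, ordered by that change (grey bars, CS minus RA, log2), with the deviation of each CS_Los array from the batch 1 RA mean (symbols, log2). Cd177, Cxcl5, Retnlg, Lcn2, S100a9, Pglyrp1, Chil1 and Mmp9 have all 3 symbols on the side of smoke, while the square of CS_Los array 2 lies near or right of 0 for most genes with grey bars to the left.

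The lists of genes described next hold known pathways and cell types. Reg3b was the 1 member of any list that passed the test in CS_Los against RA, so the other members are given by their values. They were named after their values were seen, for their roles or for lying beyond all RA arrays.

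Neutrophil genes had the highest median difference of the 30 lists with smoke and losartan, and their mean was above every RA array on all 3 CS_Los arrays. Of 16 measured, 9 lay above all RA arrays and 0 below (4.83% and 6.31% of all features did so), and the median difference was 1.15, against -0.01 over all features. The list includes Ltf, described below with the airway genes, which of the CS_Los arrays was far highest on array 3. The mean of the list stood above the RA mean by 1.31, 1.23 and 0.826 on CS_Los arrays 1 to 3. The array with the lowest smoke score was thus among the high ones here. The same mean was 0.699, 1.02 and 1.00 on the CS arrays and 0.353, 0.635 and 0.318 on the RA_Los arrays, and the RA arrays themselves spread from -0.292 to 0.293. Ngp, Mpo, Ly6g, Itgb2l, Padi4 and Fpr1 of the list were not analysed here.

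S100a9 read 8.92, 9.74 and 9.28 on the RA arrays and 11.57, 12.01 and 9.97 on the CS_Los arrays. The groups did not overlap, and CS_Los array 3 lay closest to room air. The difference was 1.87 ± 0.412 with a limma adjusted p of 0.351. Its partner S100a8 read 9.38, 10.67 and 9.67 against 12.70, 12.24 and 10.76, with CS_Los array 3 again the lowest of its group. Cd177 read 5.34, 4.75 and 4.40 on the RA arrays, where it was detected on 1 of 3, and 6.93, 6.10 and 6.93 on the CS_Los arrays. All of the CS_Los arrays lay above the RA arrays. The CS arrays stood at 6.82, 7.77 and 7.89, and the RA_Los arrays, without smoke, at 7.05, 6.04 and 5.16.

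Retnlg, a resistin-like protein of neutrophils and other myeloid cells, had among the highest moderated statistics of any gene. It read 5.63, 5.69 and 5.27 in RA and 8.43, 7.43 and 6.62 in CS_Los, a difference of 1.96 ± 0.351 (limma adjusted p = 0.142). In batch 2 smoke raised it by 1.33. Csf3r, the receptor for the growth factor of granulocytes, read 6.45, 7.09 and 6.61 against 7.75, 8.61 and 7.80. It read 7.45, 7.69 and 7.72 on the RA_Los arrays, without smoke, above all RA arrays. Its 3 CS_Los arrays also lay clear of the RA arrays, by 1.34 ± 0.247 on average (adjusted p = 0.142). Not all members of the list shared this. Elane, neutrophil elastase, read 5.13 to 5.25 in CS_Los and 4.87 to 5.95 in RA, and Camp was detected on 0 of 3 arrays of either group.

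Chemokines that call in neutrophils came next by role. Cxcl5 read 6.33, 6.10 and 5.99 in RA and 8.03, 8.15 and 7.32 in CS_Los, a difference of 1.70 ± 0.568 (limma adjusted p = 0.649). Cxcl1, a ligand of the neutrophil receptor Cxcr2, read 6.58, 6.13 and 6.68 against 7.89, 7.30 and 8.13. Neither gene overlapped between the groups. The RA_Los arrays read 8.86, 8.06 and 5.81 for Cxcl5 and 8.76, 8.49 and 7.49 for Cxcl1, so that room air with losartan held arrays as high as those of smoke. Of the 6 chemokines of this family measured, 3 lay above all RA arrays, the third being Pf4, and 1, Ppbp, lay below (4.83% and 6.31% of all features). Both Pf4 and Ppbp are known from platelets.

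Of 26 CC chemokines and cytokines, 4 lay above all RA arrays and 0 below (4.83% and 6.31% of all features), and the median difference was 0.28. The 4 were Ccl9, Ccl6, Ccl5 and Cxcl13, which the list holds beside the CC family. Ccl9, a macrophage chemokine, read 8.37, 8.55 and 7.95 in RA, 8.29, 8.49 and 8.57 in CS and 9.49, 9.67 and 9.07 in CS_Los. CS_Los lay above both other groups, by 1.12 ± 0.197 over RA (limma adjusted p = 0.142) and by 0.96 ± 0.197 over CS (adjusted p = 0.556). Smoke alone moved it by 0.16 in batch 1 and by 0.27 in batch 2. Ccl6, a related macrophage chemokine, read 5.62, 5.55 and 5.06 in RA and 7.43, 6.37 and 6.38 in CS_Los. Ccl5, a T cell attractant, read 7.99, 8.33 and 8.10 against 9.05, 9.17 and 8.85. Il1b, the inflammatory cytokine, was uneven, at 8.50, 10.19 and 7.89 in CS_Los against 7.54 to 7.91 in RA, with the highest value on the array of lowest smoke score.

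The highest moderated statistics among named genes, picked after their values were seen, belonged to Cd33, Klra17 and Pla2g7, each with a limma adjusted p of 0.117. Cd33, an inhibitory lectin of myeloid cells, read 5.49, 5.64 and 5.52 in RA and 6.87, 6.98 and 6.32 in CS_Los. Klra17 was detected on 0 of 3 RA arrays and on 3 of 3 CS_Los arrays, at least 2.39-fold higher, and belongs to the Ly49 receptors, which are alike in sequence, so its probe may read relatives. Pla2g7, the phospholipase that inactivates platelet-activating factor, read 5.51, 5.87 and 6.00 against 7.00, 6.80 and 6.54. None of the 3 overlapped between the groups. On these 3 genes the RA_Los arrays, without smoke, also lay above all RA arrays. They read 5.93, 6.31 and 6.33 for Cd33, 5.35, 5.73 and 5.13 for Klra17 and 6.26, 6.05 and 6.19 for Pla2g7. Clec4d, a lectin receptor of neutrophils and monocytes, read 6.05, 6.64 and 6.44 against 7.76, 8.74 and 7.43 (difference 1.60 ± 0.297, adjusted p = 0.142). In a fit of all 20 arrays with batch as a term, limma called 16 features, 9 higher and 7 lower. The higher ones were Pla2g7, Retnlg, Klra17, Ccl9, Cd33, Gpnmb, Csf3r, Clec4d and Ccl6, and the lower ones Mpp5, Mrc2, Lima1, Nasp, Enpp4, Bcan and a probe without a name here. The RA arrays of both batches enter that fit.

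The lowest statistics after Reg3b, picked in the same way, belonged to genes of other kinds. Mpp5, a scaffold protein of cell polarity, read 8.03, 7.99 and 7.96 against 6.96, 7.22 and 6.63 (difference -1.06 ± 0.177, limma adjusted p = 0.117). Nasp, a histone chaperone, read 7.63, 7.72 and 7.92 against 6.94, 7.03 and 6.75 (difference -0.85 ± 0.145, adjusted p = 0.117). Neither overlapped between the groups. The CS arrays read 8.01, 7.48 and 7.61 for Mpp5 and 7.44, 7.48 and 7.43 for Nasp, above all CS_Los arrays.

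Of 16 monocyte and macrophage genes, 15 had a positive difference, 5 lay above all RA arrays and 0 below (4.83% and 6.31% of all features), and the median difference was 0.30. The 5 were Gpnmb, Plac8, Chil1, Ctsk and Trem2. Gpnmb, a glycoprotein of lipid-laden and phagocytic macrophages, read 9.18, 9.36 and 8.81 in RA and 10.37, 9.93 and 10.30 in CS_Los, a difference of 1.08 ± 0.226 (limma adjusted p = 0.274). Ctsk, a collagen-degrading cathepsin, read 9.16, 8.91 and 8.70 against 9.93, 9.40 and 9.48. Resident macrophage markers lay closer to room air. Adgre1, a defining receptor of macrophages, read 10.52, 10.40 and 9.92 against 10.98, 10.60 and 9.81, and Itgax read 7.91, 7.79 and 7.67 against 7.79, 7.88 and 8.11. Mmp12, the macrophage elastase, read 6.88, 6.41 and 6.53 in CS_Los and 6.42, 6.45 and 6.59 in RA (difference 0.12 ± 0.177).

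Acute phase and mucosal defence genes had a median difference of 0.99 over 13 members, and CS_Los array 3 led them. The mean of the list stood above the RA mean by 0.590, 0.462 and 1.71 on the CS_Los arrays. The RA_Los arrays stood at 1.17, 1.56 and -0.457 without smoke. Of the 13, 4 lay above all RA arrays in CS_Los and 1 below (4.83% and 6.31% of all features). Saa3, an acute phase protein of the inflamed lung, read 4.99, 4.98 and 4.39 in RA, where it was detected on 0 of 3 arrays, and 7.37, 5.22 and 6.57 in CS_Los. It was at least 2.52-fold higher, with a limma adjusted p of 0.585, and CS_Los array 2 stood just above the RA arrays. The RA_Los arrays, without smoke, read 5.76, 6.38 and 6.27 for Saa3, also above all RA arrays. Pigr, the transporter of mucosal antibodies, read 7.05, 6.67 and 7.15 against 7.95, 7.35 and 8.75. Bpifa1, a product of upper airway glands and epithelium, peaked on CS_Los array 3 at 13.31. Bpifa1 ranged from 4.48 to 8.27 in room air and reached 13.10 on RA_Los array 2, so its level varied widely in groups without smoke too.

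Airway secretory genes followed the same arrays, with a list mean of 0.618, 0.418 and 1.48 on the CS_Los arrays, a median difference of 0.27 and 2 of 13 genes above all RA arrays (4.83% of all features). The RA_Los arrays stood at 0.978, 1.51 and 0.115 without smoke. Ltf, lactoferrin, which neutrophils and airway glands both make and which belongs to both lists, read 7.23, 7.85 and 6.36 against 8.36, 8.35 and 11.52. Scgb3a1, a secretoglobin of large airways, read 7.81, 10.59 and 7.69 in RA and 10.99, 10.84 and 13.58 in CS_Los, and RA_Los reached 13.54. Tff2, a trefoil peptide of mucous cells, read 4.62, 6.33 and 4.55 against 6.20, 6.62 and 8.08. Retnla, a resistin-like protein of type 2 inflammation with the highest difference among the smoke features in batch 2, read 9.11, 8.50 and 8.38 in RA and 10.87, 8.85 and 10.91 in CS_Los. Its CS arrays stood at 10.89, 11.84 and 11.53. Retnla thus lay at the smoke level on CS_Los arrays 1 and 3 and inside the room air range on array 2, a mean difference of 1.54 ± 0.475 (limma adjusted p = 0.615). Scgb1a1 lay near the top of the quantile-normalised scale, where rank sets the value, so it could show little spread of this kind. How much airway each lung sample held is not recorded, and its part in these values was not tested.

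The aryl hydrocarbon receptor binds hydrocarbons of smoke, and Cyp1a1 is its best known target. The 250 bases before the Cyp1a1 start, on the plus strand at chr9:57697363-57697612 of GRCm38.p6 in RefSeq, are shown because they lie upstream of the gene most tied to smoke exposure. Capitals mark GCGTG, the core letters of the receptor's response element, searched on both strands.
Cyp1a1: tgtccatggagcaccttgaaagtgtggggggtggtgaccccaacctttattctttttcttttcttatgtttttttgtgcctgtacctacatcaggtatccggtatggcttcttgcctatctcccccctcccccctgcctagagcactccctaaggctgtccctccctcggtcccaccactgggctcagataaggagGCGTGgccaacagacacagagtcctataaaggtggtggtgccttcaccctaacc
The window holds 1 match, and 28.2% of 32851 promoter windows of this length hold at least 1.

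Among the CS_Los arrays, Cyp1a1 was high on array 1 alone. It read 7.97, 4.27 and 4.54 on the CS_Los arrays and was detected on 1 of 3. On the RA arrays it read 4.46, 4.29 and 4.39 and was detected on 0 of 3, and on the CS arrays it read 5.62, 7.48 and 7.32. CS_Los arrays 2 and 3 were thus not told apart from room air by this gene. The mean was at least 1.46-fold higher in CS_Los (limma adjusted p = 0.796). Cyp1b1, a related enzyme and target, was even across the arrays, at 7.75, 7.65 and 7.95 in RA and 8.53, 8.15 and 8.35 in CS_Los. Its groups did not overlap, with a difference of 0.56 ± 0.256 (adjusted p = 0.757) beside 0.93 in the CS arrays that share the RA group and 0.79 in batch 2. Aldh3a1, an aldehyde dehydrogenase, and Ugt1a6a, a conjugating enzyme, also lay above room air on all 3 arrays, Aldh3a1 at 8.47 to 9.03 against 9.43 to 10.03 and Ugt1a6a at 8.10 to 8.47 against 8.55 to 9.06. Ugt1a6a shares most of its exons with its gene cluster, so its probe may read neighbours. The feedback genes Ahrr and Tiparp were detected on 0 of 3 CS_Los arrays. Of 10 targets measured, 3 lay above and 1 below all RA arrays (4.83% and 6.31% of all features), and the median difference was 0.30. Relative to the RA mean, the list stood at 0.393, 0.166 and 0.247 on the CS_Los arrays. On the RA_Los arrays, without smoke, it stood at 0.429, 0.402 and 0.0188, and on the CS arrays at 0.317, 0.532 and 0.566.

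Antioxidant genes of NRF2 showed small positive differences. Of 25, 23 were positive, 5 lay above all RA arrays and 0 below (4.83% and 6.31% of all features), and the median was 0.16. Their list mean stood at 0.124, 0.161 and 0.379 on the CS_Los arrays and, without smoke, at 0.181, 0.288 and 0.105 on the RA_Los arrays. Cbr3, a carbonyl reductase, read 8.69, 8.93 and 8.61 in RA and 9.37, 9.34 and 9.44 in CS_Los. The CS_Los arrays were tight and clear of room air, by 0.64 ± 0.168 (limma adjusted p = 0.477), beside 0.75 in CS of batch 1 and 0.19 in batch 2. The common reporters of NRF2 gave less. Nqo1, a quinone reductase, read 4.96, 5.13 and 4.70 against 5.37, 4.69 and 5.55, Gclc, the limiting enzyme of glutathione synthesis, had a difference of -0.18 ± 0.212, and Hmox1, heme oxygenase, of 0.74 ± 0.429. All 3 overlapped between the groups.

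**Figure D4:**
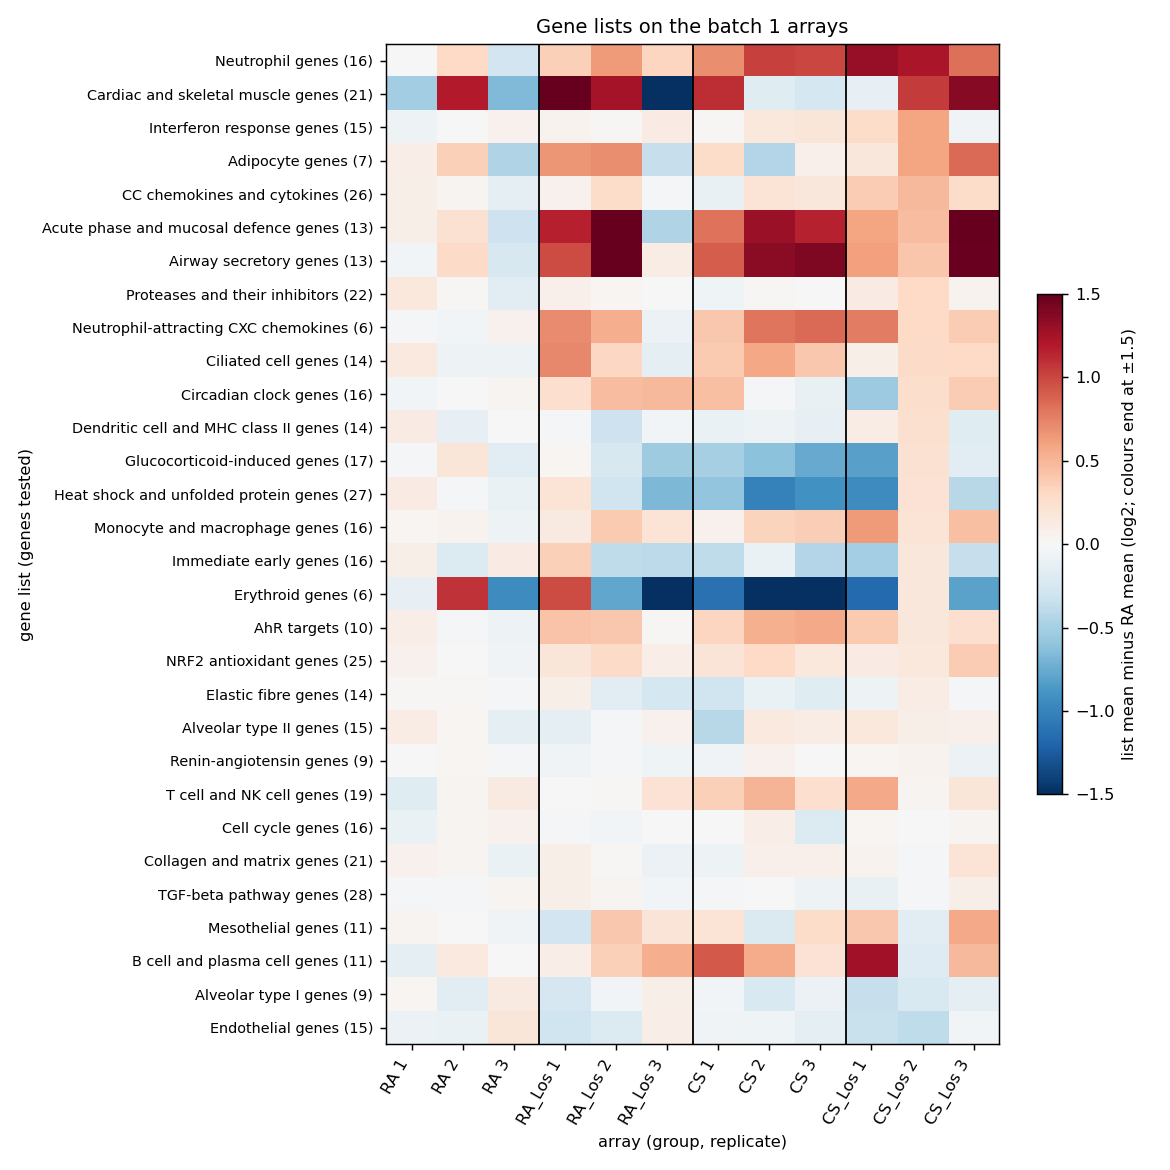
Mean of each gene list on each batch 1 array minus the RA mean (colour, log2, ending at ±1.5), with the number of genes tested in brackets and the lists ordered by CS_Los array 2. Neutrophil genes are high on all 3 CS_Los arrays (1.31, 1.23 and 0.826), while heat shock genes are low on arrays 1 and 3 (-0.944 and -0.412) and at 0.214 on array 2.

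Heat shock and unfolded protein genes were the main group that smoke lowered in batch 2. There 22 of 27 passed as lower and 0 as higher, beside 3.09% and 2.42% of all features. With losartan they split by array. Relative to the RA mean the list stood at -0.944, 0.214 and -0.412 on the CS_Los arrays, at -0.592, -1.01 and -0.909 on the CS arrays and at 0.204, -0.302 and -0.674 on the RA_Los arrays. In CS_Los minus RA 25 of 27 were negative, with a median of -0.20, and 2 lay below and 1 above all RA arrays (6.31% and 4.83% of all features). On CS_Los array 1 alone 25 of 27 were below the RA mean, on array 3 it was 20, and on array 2 it was 5. Of the 22 lowered in batch 2, 20 reached 50% of that change on array 1, 1 on array 2 and 7 on array 3.

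The promoters of Hspa1a and Hsph1, the 2 genes smoke lowered most in batch 2, are shown for the 250 bases before their starts, both on the minus strand of GRCm38.p6 in RefSeq. That of Hspa1a lies at chr17:34972157-34972406. That of Hsph1, the first of 2 windows listed, lies at chr5:149636337-149636586. Heat shock factor binds inverted repeats of GAA, and capitals mark a pair of such units, GAANNTTC or TTCNNGAA, each its own reverse complement.
Hspa1a: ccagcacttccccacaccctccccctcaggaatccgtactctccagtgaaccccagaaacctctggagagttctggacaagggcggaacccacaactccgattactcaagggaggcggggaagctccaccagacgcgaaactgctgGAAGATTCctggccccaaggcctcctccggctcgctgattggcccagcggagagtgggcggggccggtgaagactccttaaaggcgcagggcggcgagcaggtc
Hsph1: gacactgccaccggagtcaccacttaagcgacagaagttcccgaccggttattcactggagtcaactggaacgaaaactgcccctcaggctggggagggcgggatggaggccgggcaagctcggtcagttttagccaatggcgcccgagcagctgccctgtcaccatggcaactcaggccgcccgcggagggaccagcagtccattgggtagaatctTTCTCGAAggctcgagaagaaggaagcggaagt
Each window holds 1 such pair, as do 12.8% of 32851 windows in either form. The longer element of 3 units, GAANNTTC followed directly by NNGAA, on either strand, has no match in these windows and occurs in 0.466% of all. The shorter pair was searched after that result was seen.

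Hspa1a, the inducible Hsp70, read 12, 10.79 and 10.61 in RA and 5.57, 10.05 and 8.66 in CS_Los. The groups did not overlap, but CS_Los array 2 came within 1 log2 unit of room air while array 1 lay far below. The difference was -3.04 ± 1.10 (limma adjusted p = 0.677), beside -4.05 in CS of batch 1 and -4.38 in batch 2. Hspa1b is nearly identical, so the probe may read both. Dnajb1, the Hsp40 partner of Hsp70, read 12.92, 12.24 and 11.94 in RA and 10.34, 11.81 and 11.09 in CS_Los, and also stayed below all RA arrays. Hsph1, an exchange factor for Hsp70, read 12.04, 11.65 and 11.59 against 8.89, 12.52 and 10.66, so that array 2 exceeded every RA array. Hspb1, the small heat shock protein Hsp27, did the same, at 11.22, 11.12 and 10.76 against 9.14, 12.14 and 9.48. Hspa5, the chaperone of the endoplasmic reticulum, read 11.47, 11.45 and 11.26 against 11.03, 11.83 and 11.22 and differed by -0.03 ± 0.312, beside -0.83 in batch 2.

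Genes known to respond to glucocorticoids followed the same arrays. In batch 2, 10 of 17 passed as lower and 1 as higher in smoke, beside 3.09% and 2.42% of all features. Their mean stood at -0.817, 0.225 and -0.172 on the CS_Los arrays, and the median difference from RA was -0.34. Tsc22d3, which encodes the glucocorticoid-induced leucine zipper, read 11.89, 12.48 and 12.26 in RA and 10.30, 12.24 and 11.87 in CS_Los. Only array 1 lay clear of room air, and the difference was -0.74 ± 0.430 (limma adjusted p = 0.791) beside -1.80 in batch 2. Fkbp5, the cochaperone of the receptor, read 7.93, 7.88 and 7.80 against 6.53, 8.77 and 7.96, above room air on arrays 2 and 3. The 2 members below all RA arrays were Klf9, a transcription factor, and Ddit4, a stress inhibitor of mTOR, while 3 lay above (6.31% and 4.83% of all features). Ddit4 read 8.69, 9.63 and 8.52 against 7.87, 7.99 and 8.24, and Klf9 12.54, 12.69 and 12.56 against 12.02, 12.43 and 12.32. Cdkn1a, which encodes p21, read 11.30, 11.43 and 10.58 against 9.57, 11.26 and 9.33. The 3 above were Lcn2 and the metallothioneins Mt1 and Mt2, Mt1 at 11.89 to 12.01 against 12.02 to 13.01.

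Clock genes differed widely between the CS_Los arrays. Their list mean stood at -0.543, 0.265 and 0.375, and 1 of 16 lay beyond all RA arrays, fewer than the 11.1% over all features. That gene was Nr1d1, the repressor REV-ERB alpha, at 6.53, 6.59 and 6.40 in RA and 8.16, 6.87 and 9.14 in CS_Los (difference 1.55 ± 0.491, limma adjusted p = 0.646). Dbp, a transcription factor of the output arm of the clock, read 7.90, 8.48 and 8.74 against 9.61, 8.66 and 12.02. CS_Los array 3 stood over 3 log2 units above the RA mean and array 2 within the range of room air. The 250 bases before the start of Dbp hold no E-box (CACGTG) and no D-box (TTATGTAA), which occur in 6.02% and 0.819% of windows. Per2, a core repressor, read 10.56, 10.85 and 10.83 in RA and 7.86, 10.97 and 11.05 in CS_Los, low on array 1 alone. Arntl, an activator of the clock, read 9.03, 9.51 and 5.23 in CS_Los against 9.13, 9.02 and 8.75 in RA, low on array 3 alone. Low Arntl was also read on CS array 1 at 5.91 and on RA_Los arrays 2 and 3 at 5.78 and 5.84. The labels do not give the hour at which lungs were taken, and its part in these values was not tested.

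**Figure D5:**
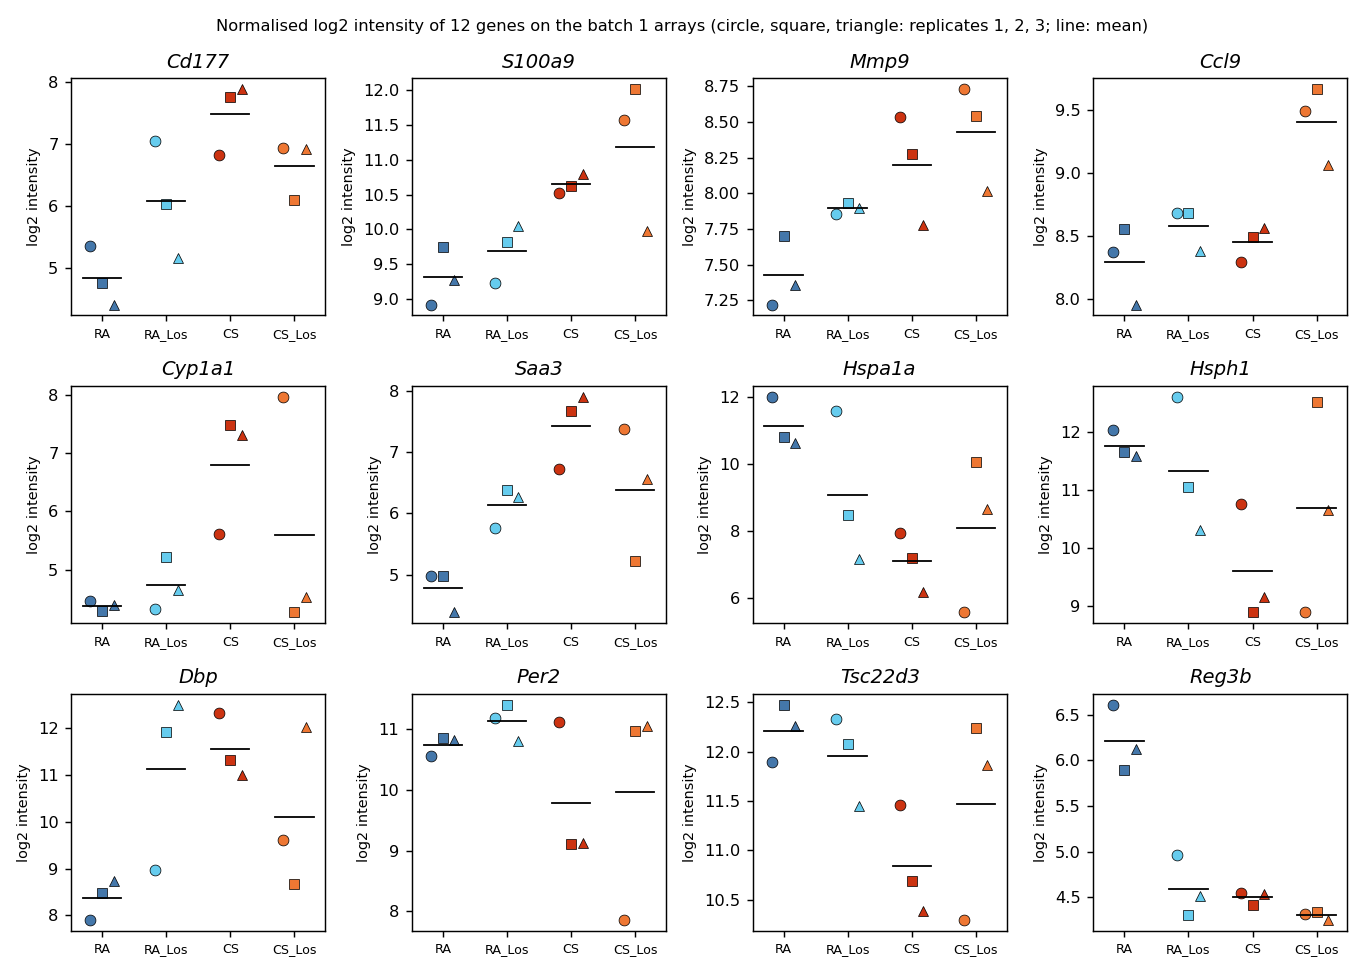
Log2 intensity of 12 genes on the 12 batch 1 arrays, by group, with symbols for replicates 1 to 3 and a line at the group mean. S100a9, Cd177, Mmp9 and Ccl9 lie above RA on all 3 CS_Los arrays, Cyp1a1 is high on CS_Los array 1 alone (7.97), and Hsph1, Per2 and Tsc22d3 are low on CS_Los array 1 while array 2 lies at or above the RA mean.

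Proteases and their inhibitors bear on the breakdown of lung matrix. Of 22 measured, 5 lay above all RA arrays and 0 below (4.83% and 6.31% of all features). Mmp9 read 7.22, 7.70 and 7.36 in RA and 8.73, 8.55 and 8.02 in CS_Los, a difference of 1.01 ± 0.223 (limma adjusted p = 0.351) beside 0.77 in CS of batch 1 and 1.00 in batch 2. On the RA_Los arrays, without smoke, Mmp9 read 7.86, 7.93 and 7.90, also above all RA arrays. Timp1, an inhibitor of metalloproteases, read 7.77, 7.37 and 7.42 against 7.98, 8.13 and 7.93. Mmp2, a gelatinase of stromal cells, read 9.41, 9.10 and 8.85 against 9.49, 9.52 and 9.91. The other 2 were Ctsk and Ctss, a cathepsin of macrophages.

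The medians of matrix and TGF-beta lists lay near that of all features. The median difference was -0.01 over 14 elastic fibre genes, 0.08 over 21 collagen and matrix genes and -0.05 over 28 TGF-beta genes. Members went both ways, with 3 TGF-beta genes above and 3 below all RA arrays, 1 matrix gene below and 0 elastic fibre genes beyond them (4.83% of all features lay above and 6.31% below). Eln, elastin, read 10.13 ± 0.12 (SD) in RA and 9.99, 10.32 and 9.26 in CS_Los. Array 3 lay well below room air, array 1 at its lower edge and array 2 above it. Its CS arrays read 8.81, 9.54 and 9.48 and its RA_Los arrays 9.84, 8.52 and 8.70. Tgfb1, the cytokine that angiotensin signalling is known to raise, read 7.06, 7.15 and 6.90 in RA and 7.03, 7.25 and 7.83 in CS_Los (difference 0.33 ± 0.201, limma adjusted p = 0.791). Ccn2, connective tissue growth factor and a TGF-beta target, read 13.18, 13.15 and 13.46 in RA and 12.87, 12.93 and 12.89 in CS_Los, below room air on all 3 arrays (difference -0.37 ± 0.152, adjusted p = 0.721). Thbs1, thrombospondin and an activator of latent TGF-beta, read 5.71, 5.40 and 5.31 against 4.82, 5.08 and 4.60. Tgfbi, a TGF-beta induced matrix protein, went the other way, at 9.92, 9.81 and 9.48 against 10.51, 10.27 and 9.95.

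The target of the drug was measured by Agtr1a, the main type 1 angiotensin receptor, at 7.56, 7.80 and 7.19 in RA and 7.73, 7.56 and 7.56 in CS_Los. The groups overlapped, and the difference was 0.10 ± 0.185 (limma adjusted p = 0.934). Agtr1b was detected on 1 of 3 RA arrays and on 0 of 3 CS_Los arrays. Ace, the converting enzyme of lung endothelium, read 6.49, 6.44 and 6.24 in RA, 6.50, 6.49 and 6.46 in CS and 5.97, 5.37 and 5.87 in CS_Los. It lay below both groups, and the difference from RA was -0.65 ± 0.281 (adjusted p = 0.739). RA_Los was split, at 5.50, 6.64 and 6.81. Of 9 genes of the pathway measured, Ace was the 1 beyond all RA arrays, the same share as the 11.1% over all features. Agt, Ren1, Agtr2, Mas1, Ctsg, Lnpep and Nr3c2 were not analysed here.

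Ace also belongs to the endothelial list, in which 4 of 15 lay below all RA arrays and 0 above (6.31% and 4.83% of all features), with a median difference of -0.21. The other 3 were Vwf, the clotting protein of vessel walls, Ednrb, an endothelin receptor, and Edn1, its peptide. Vwf read 11.81, 11.74 and 11.83 in RA and 11.28, 11.64 and 11.36 in CS_Los. Edn1 read 9.44, 9.53 and 9.63 against 8.52, 9.33 and 8.94. Both were lowest on CS_Los array 1. Ednrb read 12.01, 12.06 and 12.46 against 12, 11.54 and 11.67, and 12.38, 12.37 and 12.35 in CS. Pecam1 and Cdh5, the defining adhesion molecules of endothelium, overlapped between the groups, with differences of -0.45 ± 0.319 and -0.37 ± 0.221. Alveolar type I genes had a median of -0.205 with 2 of 9 below all RA arrays, and type II genes one of 0.07 with 1 of 15 above, the latter near the share over all features.

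Lists of other tissues and cells varied between arrays of a group, and their part in the results above was not tested. Genes of heart and skeletal muscle had positive differences for 21 of 21 members, with 0 beyond all RA arrays. They stood at -0.126, 1.05 and 1.37 on the CS_Los arrays and at -0.522, 1.19 and -0.665 on the RA arrays. Erythroid genes stood at -1.17, 0.168 and -0.799 in CS_Los and at -0.128, 1.08 and -0.949 in RA, a spread in room air as wide as that between the groups. B cell and plasma cell genes stood at 1.26, -0.190 and 0.488 in CS_Los, high on the array with the highest smoke score. T cell and NK cell genes stood at 0.567, 0.0366 and 0.181. Interferon response genes were highest on CS_Los array 2, at 0.276, 0.597 and -0.0517. The means of the adipocyte list and of the T cell and NK cell list were positive on all 3 CS_Los arrays. Above all RA arrays lay 2 of 7 adipocyte genes and 3 of 19 T cell and NK cell genes (4.83% of all features). RA arrays reached 0.353 on the adipocyte list and 0.133 on the other, above the lowest CS_Los array of each. Adipocyte genes stood at 0.167, 0.597 and 0.851 and mesothelial genes at 0.409, -0.155 and 0.570. The remaining lists are given by their medians. Ciliated cell genes had a median difference of 0.23, dendritic cell and MHC class II genes of 0.06, immediate early genes of -0.18 and cell cycle genes of -0.01. Of 16 immediate early genes, 3 lay below all RA arrays and 0 above (6.31% and 4.83% of all features). Their list mean stood at -0.504, 0.175 and -0.345 on the CS_Los arrays and at 0.354, -0.384 and -0.393 on the RA_Los arrays.

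The last comparison set CS_Los against CS, where 0 features passed. The 5 genes with the highest and the 5 with the lowest moderated statistics are given as values. Ccl9, described above, led the high end. Csf2rb2, a receptor chain for interleukin 3 with a near-identical neighbour, read 6.20, 6.21 and 6.49 in CS and 7.57, 7.41 and 7.04 in CS_Los, beside 6.82, 6.75 and 6.11 in RA. Ppt2, a lysosomal thioesterase, Krt79, a keratin, and B3gnt7, a glycosyltransferase, completed the high end with differences of 0.65, 0.90 and 0.77. CS_Los lay above all CS arrays on these 5 genes, as the choice of genes makes likely. Over all features 10.6% did not overlap between the 2 groups in either direction.

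At the low end stood Katnal1, Mrc2, Lima1, Samd5 and Ezh2. Mrc2, a collagen receptor of fibroblasts, read 5.86, 5.86 and 5.85 in CS and 5.19, 4.93 and 5.15 in CS_Los, beside 5.56, 5.64 and 5.92 in RA. It was the 1 gene called between CS_Los and CS in the fit of all 20 arrays, at -0.75 ± 0.103 (limma adjusted p = 0.00516). Lima1, an actin-binding protein, read 10.40, 10.04 and 10.19 in CS and 9.46, 9.56 and 8.96 in CS_Los. Ezh2, the histone methyltransferase of Polycomb, read 6.72, 7.02 and 6.84 in CS and 6.37, 5.91 and 5.61 in CS_Los. On the smoke features the median of CS_Los minus CS was -0.23 in the direction of smoke, with 0 of 701 features past the test. The CS_Los arrays had median changes of 0.599, -0.105 and 0.23 from RA in the direction of smoke. The CS arrays had 0.306, 0.572 and 0.504, so that CS_Los arrays 2 and 3 both lay below every CS array. With CS_Los array 1, 2 or 3 left out, the smoke score of CS_Los was 0.191, 0.947 or 0.572 above RA, beside 1.06 for CS.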

How the data were processed

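Whole-lung RNA was hybridised to Illumina bead arrays and summarised in BeadStudio, per the submitters' processing notes (version not given). The deposited intensity values, 1 per probe and array, were not normalised. The deposited detection p-value beside each intensity was paired with its array by its place in the table. The deposited log2 values of the series equal the log2 intensity shifted to a common median and served as an alternative.

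The intensities were background-corrected with limma's nec (version 3.58.1 in R 4.3.3, offset 16), quantile-normalised over 20 arrays and log2-transformed. A probe had to be detected (p under 0.05) on 3 or more arrays, and the brightest probe stood for its gene. Of 25697 probes, 23141 had 1 gene symbol, 0 several and 2556 none. lmFit and eBayes were run on the 12 arrays of batch 1, and separately on the 8 of batch 2, with Benjamini-Hochberg adjustment. The number of arrays limits the precision. A fold for a probe not detected on any array of a group used the lowest detected signal of each array in its place. The code was tested on simulated data. The CS_Los titles carry other numbers than the RA titles, so CS_Los arrays could be matched to the others only by order. Deviations of arrays at the same place correlated at r from -0.111 to 0.0554 between CS_Los and RA, and from -0.308 to 0.315 over all pairs of groups. Replicate numbers were not used as pairs.

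Genes were named by rule: the strongest called genes, up to 4 called members of each of 30 lists, the 5 highest and 5 lowest statistics against CS, the strongest smoke features of batch 2 and genes of the angiotensin question. Others were named after their values were seen. The lists hold 573 genes, of which 450 were tested. The groups compared, lists, rules and tests were chosen with earlier results of these data known. Promoters are from RefSeq.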

Additional observations from a re-analysis of the deposited data

Results flagged for a closer look

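Katnal1, a subunit of a microtubule-severing complex, lay on opposite sides of room air in the smoke groups of batch 1. The RA arrays read 6.01, 5.82 and 5.82, the CS_Los arrays 5.70, 5.45 and 4.89, and the CS arrays 6.47, 6.27 and 6.60. All CS_Los arrays were below all RA arrays, with a difference of -0.53 ± 0.195, and all CS arrays were above them, with a difference of 0.56 ± 0.195. The difference between CS_Los and CS was -1.10 with a limma adjusted p of 0.556, which did not pass. In batch 2 the difference of CS from RA was -0.47.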

How the results depend on the processing

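Reg3b was the 1 gene called between CS_Los and RA. With detection on at least 10 of 20 arrays, a filter that leaves Reg3b out before the test, the count was 0. It was also 0 with 75th percentile centring, with the log2 values of the series and with only the 2 groups in the fit. It was 2 with array weights, 16 with all 20 arrays and batch as a term, and 1 to 5 when 1 array was left out, the 5 without CS_Los array 3 (S100a9, Klra17, Cd33, Reg3b and Retnlg). With RA_Los also left out it was 3, 1 and 4 without CS_Los array 2, 1 and 3, settings chosen after the data were seen. Between CS_Los and CS the count was 1 in place of 0 with all 20 arrays. The share of smoke features with the sign of batch 2, 85.3%, was 90.1% with a fold minimum of 1.5, 81.7% with array weights, 89.3% with all 20 arrays, and 58.6% to 92.3% when 1 array was left out, with or without RA_Los. Smoke features called in the direction of smoke numbered 5 with all 20 arrays and 0 to 2 with 1 array left out, and 2 and 1 with RA_Los left out too. The smoke score difference of 0.57 ranged from 0.191 to 0.947. With the order of arrays within each group as a block the count was 1 and the share 85.3%, and the block changed no call. For CS_Los that order is not a shared number. Of the gene values, 897 kept their direction and side of the threshold. The direction turned for Agtr1b at 0.002 without background correction and at 0.016 with array weights. With 1 array left out, Agtr1b ranged from -0.183 to 0.181 and Agtr1a from -0.064 to 0.244 (turned without RA array 3), Per2 from -1.338 to 0.26, Per1 from -1.5 to 0.337 and Mmp12 from -0.016 to 0.219 (turned without CS_Los array 1), and Eln from -0.507 to 0.024 (turned without CS_Los array 3). The cause was not tested. Centring moved the median of all features from -0.01 to -0.059 and the series values to 0.04. Probes near background give only bounds.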
